A study of Mus musculus with 18 samples.

Results

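Vgf, Scg2, Gpr3, Acvr1c, Nptx2, Inhba, Pcsk1 and Chgb are 8 genes of the neuronal late response and the regulated secretory pathway, taken by name from the 29942 gene names of a table of striatal transcript levels. They were chosen by role and, for some, by measured values: a shift of their FPKM with amphetamine over the 3 days of these same data. Which of the 8 were selected on those values is not recorded. Their differences between amphetamine and saline are therefore given as a description: no p-value is printed for them, and the counts of how many pass limma's threshold stand only beside the share of all genes. All 8 had a mean of at least 1 FPKM (fragments per kilobase of transcript, scaled to the mapped fragments of the library) over the 18 animals and so were among the 13975 genes on which the statistics ran.

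The study asked which striatal transcripts go with repetitive behaviours brought on by a drug. Amphetamine animals received D-amphetamine hemisulfate, which releases dopamine and other monoamines, in 0.9% saline by intraperitoneal injection at 10 ml/kg, to a total of 7 mg/kg a day, and were sampled on day 1, day 7 or day 21. Saline animals received 0.9% saline intraperitoneally and were sampled on the same days. Each of the 6 groups held 3 mice, and all 18 were siblings of the 129Sv/Jae S4 strain, group-housed and matched for age and sex. The striatum above the anterior commissure was dissected from both hemispheres and its polyadenylated RNA was sequenced, 1 library per animal. The sources used here do not give the interval between the last injection and dissection, the number of injections behind each later day, or the age and sex of the mice.

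Neurons respond to strong input in waves: immediate-early genes, mostly transcription factors, come first, and late-response genes, which encode secreted, membrane and synaptic proteins, follow. Calcium and cAMP signals reach many of both kinds through CREB, a factor that binds the cAMP response element (CRE) in promoters. Several of the proteins described here travel in dense-core vesicles, where granins are packed with neuropeptides and prohormone convertases cut their precursors. In the striatum, dopamine raises cAMP through D1 receptors in one class of projection neuron, and psychostimulants are known to induce activity-regulated genes there.

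Promoter windows from RefSeq (build GRCm38.p6, 250 bases before to 50 bases after each annotated start) were found for 6 of the 8 genes, with 2 alternative starts for Acvr1c and so 7 windows. No window was found for Vgf and Nptx2, so their promoters were not searched. The letter patterns searched, on both strands, were the full CRE TGACGTCA, which is its own reverse complement; the CRE core TGACG, which also lies within every full CRE; and the AP-1 pattern TGANTCA, which is bound by Fos and Jun proteins. The full CRE was in the windows of Scg2, Chgb and Pcsk1, and in 1.79% of all 32851 windows of that length in the genome table. It lay 68 to 61 bases before the Scg2 start, 72 to 65 bases before the Chgb start and 78 to 71 bases before the Pcsk1 start. The sequences below are shown because the element recurs at nearly the same distance in these 3 secretory genes. Gpr3, the gene with the largest difference between treatments among the 8, is shown beside them and holds the CRE core but no full CRE. Each runs 5′ to 3′ over the 150 bases before the start, with matches to the full CRE or its core in capitals. Scg2 is at chr1:79440027-79440176 (minus strand), Chgb at chr2:132781492-132781641 (plus strand), Pcsk1 at chr13:75089707-75089856 (plus strand) and Gpr3 at chr4:133212537-133212686 (minus strand).
Scg2: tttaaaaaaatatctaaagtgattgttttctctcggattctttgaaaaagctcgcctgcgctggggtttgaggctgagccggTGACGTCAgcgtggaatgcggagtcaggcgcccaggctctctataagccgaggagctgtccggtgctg
Chgb: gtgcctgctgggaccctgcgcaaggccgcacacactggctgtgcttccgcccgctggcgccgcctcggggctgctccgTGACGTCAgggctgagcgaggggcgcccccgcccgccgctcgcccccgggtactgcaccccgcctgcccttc
Pcsk1: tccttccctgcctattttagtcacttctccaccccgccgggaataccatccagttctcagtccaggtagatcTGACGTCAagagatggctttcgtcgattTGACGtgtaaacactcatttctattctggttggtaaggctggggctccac
Gpr3: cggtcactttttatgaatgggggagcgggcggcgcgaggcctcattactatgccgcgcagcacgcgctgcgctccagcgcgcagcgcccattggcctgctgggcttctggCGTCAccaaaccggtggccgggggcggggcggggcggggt

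Pcsk1 had a further CRE core 50 to 46 bases before its start. Gpr3 had cores 196 to 192 and 40 to 36 bases before its start, the nearer one read on the opposite strand, and an AP-1 match that spans the start. The core was in 20.8% of all windows and the AP-1 pattern in 7.81%. The windows of Inhba and both of Acvr1c held none of the patterns. A match is a run of letters, not a measured binding site.

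**Figure D1:**
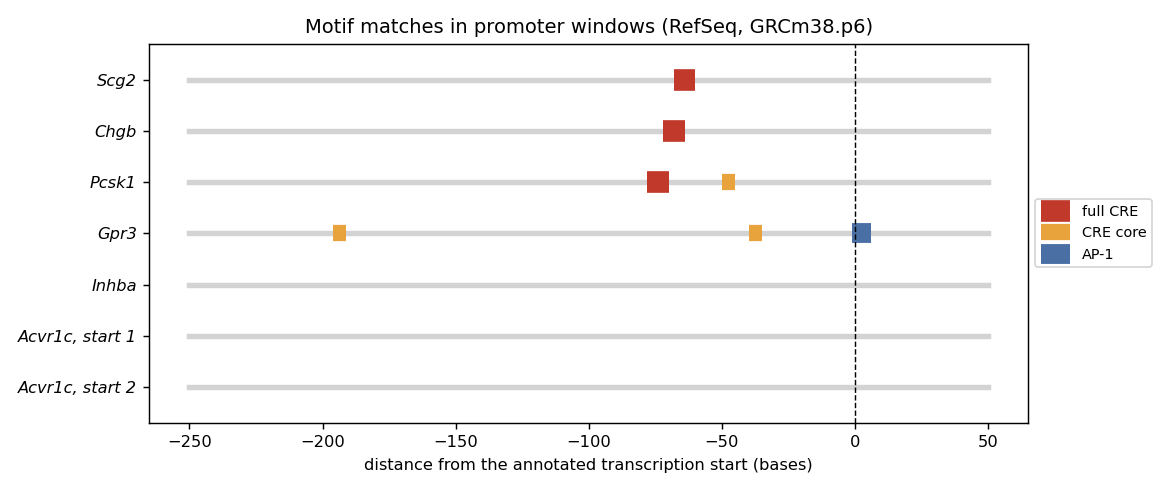
Positions of the full CRE, the CRE core outside a full CRE and the AP-1 pattern in the promoter windows of 6 of the 8 genes, in bases from the annotated start (dashed line). The full CRE of Scg2, Chgb and Pcsk1 falls between 78 and 61 bases before the start, and the Inhba and Acvr1c windows are empty.

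The 8 genes spanned a wide range of levels per unit length. Over the 18 animals Scg2 averaged 102.7 FPKM, Vgf 87.2, Chgb 64.6, Acvr1c 18.2, Nptx2 14.5, Inhba 5.41, Gpr3 3.54 and Pcsk1 3.32. Of the 7 neighbouring pairs in that order, the ranges over animals did not overlap for Chgb over Acvr1c and for Nptx2 over Inhba, and they overlapped for the other 5 pairs. Scg2 was above Vgf in 14 of 18 animals and Gpr3 above Pcsk1 in 10 of 18. The spread between animals of a group also differed between genes: the standard deviation on the log2(FPKM + 1) scale was 0.08 for Chgb and 0.32 for Gpr3.

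Libraries of both treatments overlapped in depth and profile, with Pearson r between libraries of 0.920 to 0.939 within groups and 0.911 to 0.942 between groups. The depth relative to the deepest library, read from the spacing of low FPKM values, ran from 0.652 to 1, with a mean of 0.799 in amphetamine and 0.884 in saline libraries; the absolute depth is unknown. The summed FPKM of 12 projection neuron markers was 3866.5 to 4659.9 in amphetamine and 3824.8 to 4598.5 in saline libraries, and Ppp1r1b (DARPP-32, abundant in these neurons) averaged 1142 FPKM. Fos was higher after amphetamine by 1.98 ± 0.16 (SE) on the log2(FPKM + 1) scale in the mean of the 3 days (adjusted p = 4.9e-05, limma). Across the genome, limma called 1 gene on day 1, 3 on day 7, 0 on day 21 and 17 in the mean of days at an adjusted p of 0.05, all of them higher after amphetamine; at an unadjusted p of 0.05 day 21 had 768.

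Of the 8 genes, 0 passed limma's adjusted threshold in each treatment contrast, values that the choice of genes had already used. Over all tested genes the share called on days 1, 7 and 21 was 0.00716%, 0.0215% and 0%, and in the mean of days 0.122%. At an unadjusted p of 0.05, 2 of the 8 passed on day 1 (7.25% of all tested genes), 5 on day 7 (4.92%), 2 on day 21 (5.50%) and 4 in the mean of days (5.36%). The interaction of treatment with day called 0 of the 8 and 0% of all genes by limma, with 0 of the 8 and 6.25% of all genes at an unadjusted p of 0.05. Since these contrasts served to choose some of the genes, nothing is read from any of those counts.

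**Figure D2:**
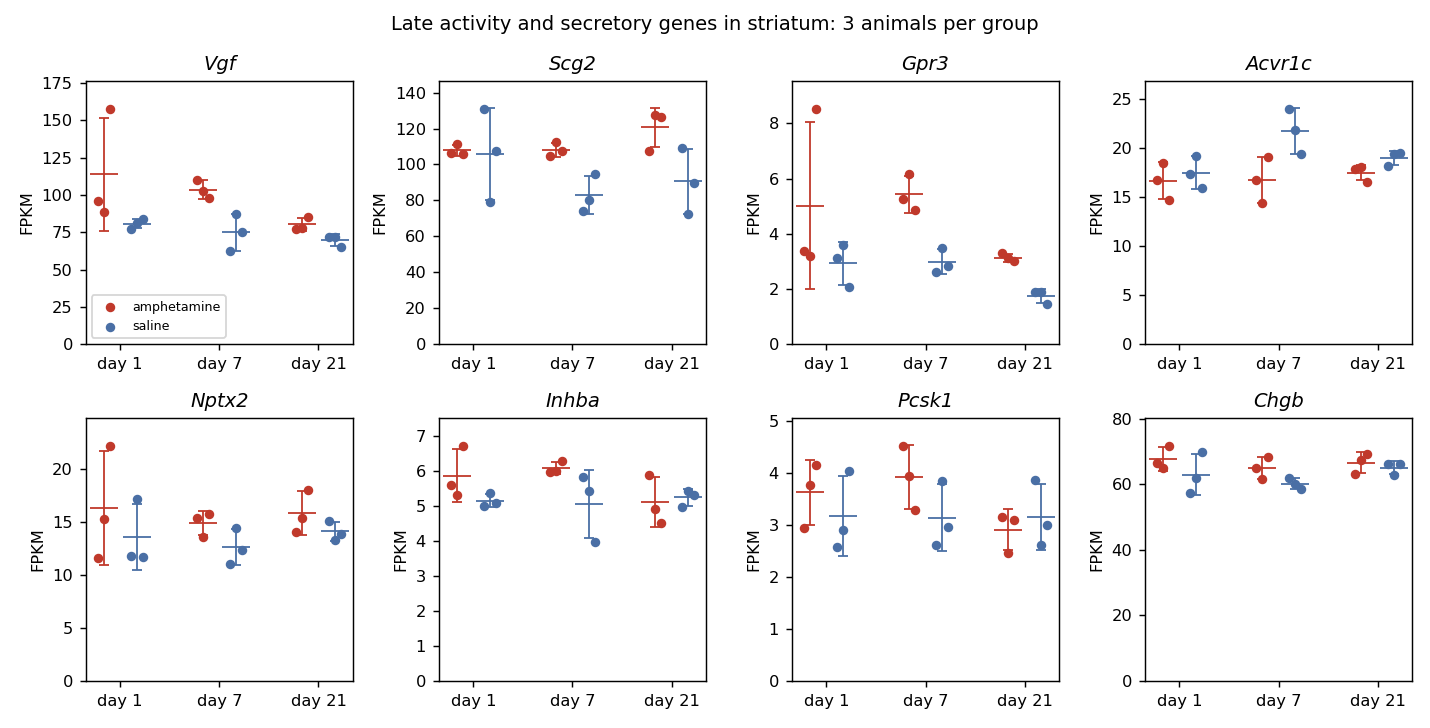
FPKM of each of the 8 genes in every animal, amphetamine in red and saline in blue, on days 1, 7 and 21; horizontal bars are group means and error bars 1 SD (n = 3 animals). Vgf is the one gene whose amphetamine animals all lie above the saline animals on each of the 3 days, and Acvr1c is below saline on days 7 and 21.

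The granins and their convertase come first. Vgf encodes a secreted precursor of several neuropeptides and is induced by neurotrophins and by activity. On day 1 it had 96.0, 88.5 and 157 FPKM in amphetamine animals, against 77.5, 81.1 and 83.6 FPKM in saline animals. On day 7 it had 110, 103 and 98.0 FPKM in amphetamine animals, against 62.5, 87.2 and 75.4 FPKM in saline animals. On day 21 it had 77.5, 78.2 and 85.4 FPKM in amphetamine animals, against 71.9, 72.2 and 65.1 FPKM in saline animals. Every amphetamine animal was above every saline animal of its day on all 3 days, as for 20 of the 13975 genes (0.143%). That share is a description only, since the choice of genes may have used these values. The third amphetamine animal of day 1 stood far above the rest. In bulk tissue, more cells of a type and more RNA per cell cannot be told apart. On days 1, 7 and 21 the difference on the log2(FPKM + 1) scale was 0.45 ± 0.16, 0.47 ± 0.16 and 0.20 ± 0.16 (SE, n = 3 per group), and in the mean of days it was 0.37 ± 0.09. Without that day 1 animal the day 1 difference was 0.19 and the mean 0.29.

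Scg2 encodes secretogranin II, the precursor of secretoneurin. On day 1 it had 106, 111 and 106 FPKM in amphetamine animals, against 131, 79.3 and 108 FPKM in saline animals, so the groups overlapped entirely. On day 7 it had 105, 112 and 107 FPKM in amphetamine animals, against 74.1, 80.3 and 94.6 FPKM in saline animals. On day 21 it had 108, 127 and 127 FPKM in amphetamine animals, against 109, 72.7 and 89.9 FPKM in saline animals. The groups were apart on day 7 and met on day 21 through 1 saline animal that lay just above the lowest amphetamine animal. On days 1, 7 and 21 the log2 difference was 0.05, 0.39 and 0.42 (SE 0.16 each), with a mean of 0.29 ± 0.09. Over single left-out libraries the day 1 difference ran from -0.14 (without saline animal 2 of day 1) to 0.22 (without saline animal 1 of day 1). The day 21 difference ran from 0.28 (without saline animal 2 of day 21) to 0.57 (without saline animal 1 of day 21). Over all days Scg2 varied less among amphetamine animals (112.2 ± 8.75 FPKM, SD, n = 9) than among saline animals (93.2 ± 19.5 FPKM, SD, n = 9); this difference in spread was not tested.

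Chgb encodes chromogranin B, a structural granin of the dense core, and had the steadiest level. It averaged 67.7 ± 3.55, 64.99 ± 3.26 and 66.6 ± 3.22 FPKM in amphetamine animals on days 1, 7 and 21, and 62.97 ± 6.29, 60.2 ± 1.68 and 65.1 ± 1.85 FPKM in saline animals (SD, n = 3 each). The groups overlapped on every day, and the log2 difference was 0.11, 0.11 and 0.03 (SE 0.07 each). Its day 1 value was 0.06 without amphetamine animal 3 and 0.04 without saline animal 1, and its day 21 value 0.003 without amphetamine animal 3. Pcsk1 encodes prohormone convertase 1/3, which cuts granins and other precursors. It averaged 3.62 ± 0.62, 3.92 ± 0.61 and 2.91 ± 0.39 FPKM in amphetamine animals on days 1, 7 and 21, and 3.18 ± 0.77, 3.14 ± 0.64 and 3.15 ± 0.64 FPKM in saline animals (SD, n = 3 each). Its groups overlapped on every day as well, and the mean log2 difference was 0.11 ± 0.09. Over single left-out libraries its difference ran from 0.05 to 0.30 on day 1, 0.16 to 0.37 on day 7 and -0.18 to 0.04 on day 21. The 3 genes with a full CRE in the window had mean differences of 0.29 (Scg2), 0.08 (Chgb) and 0.11 (Pcsk1). Any link between the element and these differences was not tested, and Vgf and Nptx2 had no window to search.

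Gpr3 encodes a receptor that couples to Gs and raises cAMP without a known need for a ligand. On day 1 it had 3.37, 3.19 and 8.51 FPKM in amphetamine animals, against 3.11, 3.60 and 2.08 FPKM in saline animals. On day 7 it had 5.28, 6.17 and 4.85 FPKM in amphetamine animals, against 2.62, 3.49 and 2.83 FPKM in saline animals. On day 21 it had 3.30, 3.12 and 3.01 FPKM in amphetamine animals, against 1.89, 1.89 and 1.45 FPKM in saline animals. On days 7 and 21 every amphetamine animal was above every saline animal, while on day 1 a single amphetamine animal was high and the other two lay within the saline range. The ratio of mean FPKM, amphetamine over saline, came to 1.72 on day 1, 1.82 on day 7 and then 1.80 on day 21. On the log2(FPKM + 1) scale, which understates the change of so low a gene, the difference was 0.53, 0.69 and 0.60 (SE 0.24 each). The mean of days was 0.61 ± 0.14, above that of 99.0% of tested genes. Nothing is read from that rank, since the choice of genes may have used these values. With a pseudocount of 0.1 the mean was 0.77. Without the high day 1 animal it was 0.48 and the day 1 difference 0.14.

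Acvr1c encodes ALK7, a type I receptor for activins, nodal and related ligands, and was the one gene of the 8 with a lower mean after amphetamine. On day 1 it had 16.7, 18.5 and 14.7 FPKM in amphetamine animals, against 17.4, 19.2 and 15.9 FPKM in saline animals. On day 7 it had 16.8, 14.4 and 19.1 FPKM in amphetamine animals, against 24.0, 21.9 and 19.4 FPKM in saline animals. On day 21 it had 17.9, 18.02 and 16.6 FPKM in amphetamine animals, against 18.2, 19.4 and 19.5 FPKM in saline animals. The amphetamine animals lay wholly below saline on days 7 and 21, by narrow margins, and within the saline range or just under it on day 1. The log2 difference was -0.07, -0.36 and -0.11 (SE 0.11 each), with a mean of -0.18 ± 0.06. With relative library depth as a covariate, the mean was -0.10 and the day 21 difference -0.01. The same covariate gave a mean of 0.31 for Vgf (0.13 on day 21), 0.29 for Scg2, 0.61 for Gpr3 and 0.07 for Chgb. For Pcsk1 that mean was 0.05, for Inhba 0.17 and for Nptx2 0.21.

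Inhba encodes the activin A subunit, a secreted ligand induced by activity in neurons. It had 5.96, 6.00 and 6.28 FPKM in amphetamine animals of day 7, against 5.80, 5.41 and 3.96 FPKM in saline animals, with no overlap. On day 1 it averaged 5.86 ± 0.74 FPKM in amphetamine and 5.14 ± 0.20 FPKM in saline animals, and on day 21 it averaged 5.10 ± 0.70 FPKM in amphetamine and 5.24 ± 0.23 FPKM in saline animals (SD, n = 3 each). Both of those days overlapped. The log2 difference was 0.15, 0.24 and -0.04 (SE 0.11 each), with a day 1 value of 0.07 without amphetamine animal 3 of day 1 and a day 7 value of 0.10 without saline animal 3 of day 7.

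Nptx2 encodes neuronal pentraxin 2 (Narp), a secreted protein that gathers AMPA receptors at synapses. It had 11.6, 15.3 and 22.1 FPKM in amphetamine animals of day 1, against 11.8, 17.2 and 11.7 FPKM in saline animals. It averaged 14.9 ± 1.14 FPKM in amphetamine and 12.6 ± 1.71 FPKM in saline animals on day 7, and 15.8 ± 2.04 FPKM in amphetamine and 14.1 ± 0.88 FPKM in saline animals on day 21 (SD, n = 3 each). The groups overlapped on every day. The log2 difference was 0.23, 0.23 and 0.15 (SE 0.19 each), and without amphetamine animal 3 of day 1 the day 1 difference was -0.004. The day 7 difference was 0.14 without saline animal 1 and the day 21 difference 0.06 without amphetamine animal 3.

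Counted together, the amphetamine animals were all above the saline animals for 1 of the 8 genes on day 1 (7.73% of all tested genes), 4 on day 7 (5.45%) and 2 on day 21 (4.76%). They were all below for 0 on day 1 (2.91%), 1 on day 7 (4.86%) and 1 on day 21 (7.51%). Of the 8, 2 (Vgf and Gpr3) were wholly above saline on 2 or 3 days, beside 1.27% of all tested genes, and 1 (Acvr1c) was wholly below on 2 or 3 days, beside 0.716%. The group mean was higher after amphetamine for 7, 7 and 5 of the 8 on days 1, 7 and 21, beside 64.04%, 51.5% and 42.7% of all tested genes. The median difference of the 8 was 0.15, 0.24 and 0.09, beside 0.05, 0.004 and -0.02 over all tested genes. Nothing is read from these counts and medians, since the same contrasts served to choose some of the genes. Without amphetamine animal 3 of day 1 the day 1 median of the 8 was 0.07; it ran from 0.07 to 0.22 over single left-out libraries, that of day 7 from 0.22 to 0.34 and that of day 21 from 0.05 to 0.15.

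**Figure D3:**
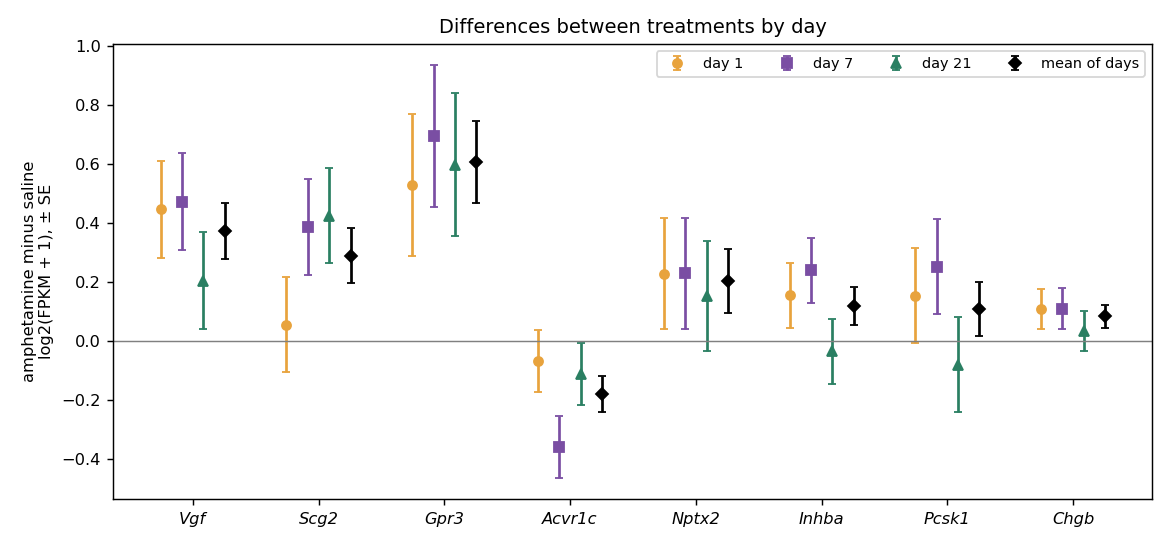
Amphetamine minus saline on the log2(FPKM + 1) scale for each gene on days 1, 7 and 21 and in the mean of days; error bars are 1 SE from limma (n = 3 animals per group). Gpr3 has the highest value on each day, from 0.53 to 0.69, and Acvr1c is below 0 on each day.

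Amphetamine animal 3 of day 1 had the highest level of all 18 libraries for 5 of the 8 genes (Vgf, Gpr3, Nptx2, Inhba and Chgb), and it was the highest library for 19.6% of all tested genes. It also had the highest summed FPKM of all 18 libraries for 4 of the 11 marker lists, at 2960 for oligodendrocytes (next 2287), 760 for astrocytes (next 706), 31.6 for ependyma and 4660 for projection neurons (next 4598). The same animal was the highest of the 18 for each of the 10 immediate-early genes called higher in the mean of days. For Fos it had 36.8 FPKM (next 25.7) and for Arc 130 FPKM (next 95.5). The part of these genes and of the marked cell types in its values was not tested. Seen against the saline mean of its day it was higher for 7 of the 8, with a median of 0.32 on the log2 scale, while the other two amphetamine animals of that day had medians of 0.06 and 0.11. On day 7 the 3 amphetamine animals were alike, each higher for 7 of the 8 with medians of 0.31, 0.24 and 0.29. On day 21 each was higher for 5 of the 8, with medians of 0.08, 0.09 and 0.19.

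**Figure D4:**
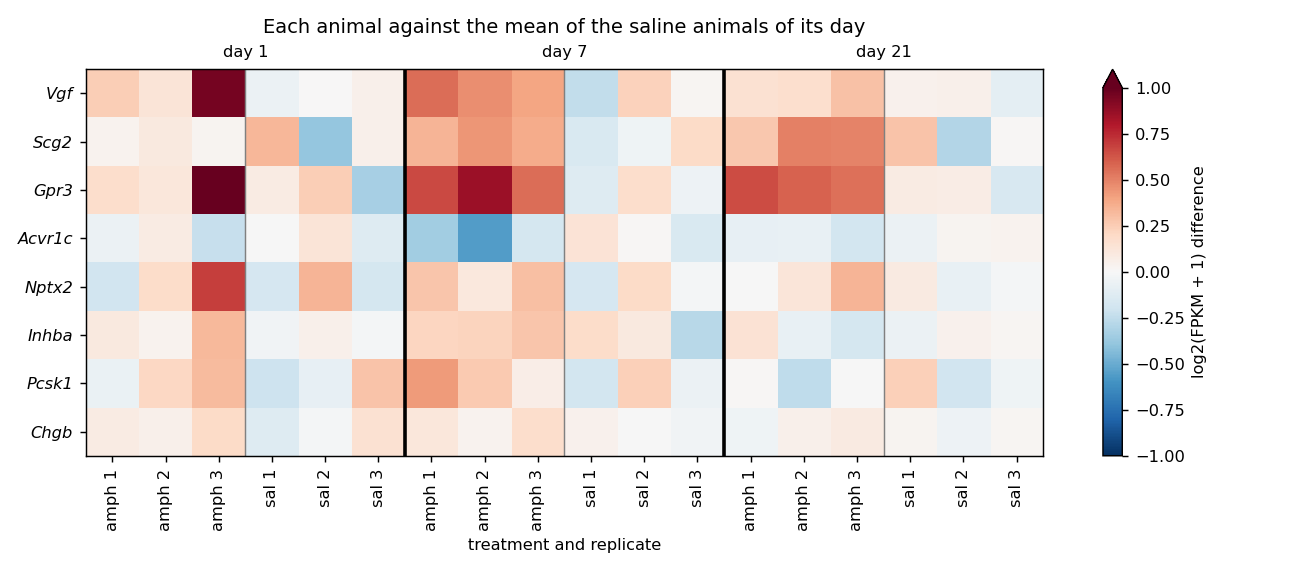
Each animal's log2(FPKM + 1) level minus the mean of the saline animals of its day, for the 8 genes; red is higher and blue lower, and values past 1 share the end colour. The 3 amphetamine animals of day 7 share one profile, while on day 1 a single animal stands out in Vgf, Gpr3 and Nptx2.

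Marker sums of other cell types also differed between the groups on some days. The summed FPKM of the cortical glutamatergic markers was 662.9 to 813.9 in amphetamine and 514.0 to 954.6 in saline libraries, and lay wholly lower in amphetamine libraries on day 7 (668.7 to 813.9 against 827.7 to 926.9) and on day 21 (698.7 to 732.1 against 780.0 to 954.6). Nrgn, neurogranin, made up 96.6% of that sum. Without Nrgn the groups overlapped, at 9.87 to 18.1 FPKM in amphetamine and 13.6 to 22.4 FPKM in saline libraries of day 7, and at 22.4 to 38.1 FPKM in amphetamine and 19.9 to 76.9 FPKM in saline libraries of day 21. Slc17a7, the vesicular glutamate transporter that defines these cells, also overlapped on day 7. It had 1.29, 3.48 and 7.49 FPKM in amphetamine and 10.5, 4.56 and 1.69 FPKM in saline libraries of that day. Its log2 difference was -1.52, -0.33 and -0.50 on days 1, 7 and 21 (SE 0.83 each). In the mean of days it was -0.78 ± 0.48, and the groups overlapped on days 1 and 21 as well. Of the 7 tested markers 4 were higher after amphetamine on day 7 and 0 in the mean of days, none passed the test, and Emx1 was at 0 in some libraries. The interneuron marker sum on day 7 was 331.7 to 354.9 in amphetamine and 263.4 to 313.9 in saline libraries. Sst (mean 237.7 FPKM), which is also on the list of other late-response genes, and Npy (60.5 FPKM) made up most of it. Of the 7 tested interneuron markers 5 were higher after amphetamine on day 7 and 2 lower (Chat -0.11, Cck -0.08), and none passed. The choroid plexus sum on day 1 was 27.5 to 103.0 in amphetamine and 10.6 to 20.1 in saline libraries. On that day the septal and pallidal sum was 24.73 to 31.98 in amphetamine and 19.50 to 24.71 in saline libraries. Of the 7 septal and pallidal markers 6 were higher after amphetamine on day 1 and 1 lower, and none passed. The blood sum on day 21 was 151.8 to 262.2 in amphetamine and 91.8 to 147.0 in saline libraries. With the mean log2 level of the cortical markers as a covariate the mean of days was 0.32 for Vgf, 0.28 for Scg2, 0.55 for Gpr3 and -0.15 for Acvr1c. With that of the interneuron markers the day 7 difference was 0.50 for Vgf, 0.37 for Scg2 and 0.77 for Gpr3. The part of choroid plexus and of septal and pallidal tissue in the day 1 values, and of blood in the day 21 values, was not tested.

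The change over days in saline animals is not the treatment difference itself, but the same saline animals enter both, so it is not independent of how the genes were chosen and supports nothing about them. Of the 8, 0 passed the overall day effect (0.00716% of all tested genes did, by limma), and 1 was under an unadjusted p of 0.05, beside 5.95% of all genes. That gene was Acvr1c, whose day 7 minus day 1 difference in saline animals was 0.30 ± 0.11 on the log2 scale, with no overlap between the 3 day 7 and the 3 day 1 animals. In amphetamine animals Acvr1c averaged 16.7 ± 1.90, 16.7 ± 2.36 and 17.5 ± 0.79 FPKM on days 1, 7 and 21, and in saline animals 17.5 ± 1.67, 21.7 ± 2.30 and 19.01 ± 0.72 FPKM (SD, n = 3 each), so the gap of day 7 lay at the highest saline level. Scg2 averaged 107.8 ± 3.00 and 108.2 ± 3.92 FPKM in amphetamine animals of days 1 and 7, and 105.9 ± 25.8 and 82.99 ± 10.5 FPKM in saline animals (SD, n = 3 each), a saline difference of -0.33 ± 0.16 on the log2 scale. Gpr3 in saline animals was at 1.74 ± 0.25 FPKM on day 21, against 2.98 ± 0.45 FPKM on day 7 and 2.93 ± 0.78 FPKM on day 1 (SD, n = 3 each), a log2 difference of day 21 minus day 7 of -0.54 ± 0.24. By single contrasts, 1 of the 8 was under an unadjusted p of 0.05 for day 7 minus day 1 (5.79% of all genes), 0 for day 21 minus day 1 (5.68%) and 1 for day 21 minus day 7 (5.40%). All day 7 saline animals were above all day 1 animals for 1 of the 8, Acvr1c (4.05% of all tested genes), and below for 0 (5.24%). All day 21 animals were above all day 1 animals for 0 of the 8 (7.19%) and below for 2, Vgf and Gpr3 (3.33%). Against day 7, all day 21 animals were above for 1 of the 8, Chgb (7.48%), and below for 1, Gpr3 (2.72%).

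Across the 18 libraries the 8 genes formed no single block. Of their 28 pairs, 20 had a positive Pearson r on the log2(FPKM + 1) scale, with a median r of 0.30, and 16 did once group means were taken out, with a median of 0.15. Vgf and Gpr3 were the closest pair, with r = 0.89 (Spearman rho 0.85) for levels and r = 0.81 (rho 0.58) for deviations from group means. Acvr1c ran opposite to Vgf (r = -0.67) and to Scg2 (r = -0.67). These are descriptions over libraries that share treatment, depth and the high day 1 animal.

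The genes most like each of the 8 were found by Pearson r over the same 18 libraries. For Vgf they were Ccrn4l (r = 0.93, rho 0.87, r = 0.81 without the 2 libraries farthest from the Vgf median), Dnajb5 (r = 0.91) and Slc25a25 (r = 0.89). For Gpr3 they were the immediate-early genes Egr4 (r = 0.88, rho 0.84, 0.78 without 2 libraries) and Nr4a1 (r = 0.87, rho 0.83, 0.83 without 2 libraries), followed by Ccrn4l (r = 0.85). For Scg2 they were Gad2, which makes GABA (r = 0.88, rho 0.86, 0.83 without 2 libraries), March1 and AK169831. For Acvr1c they were Cdh9, a cadherin (r = 0.92, rho 0.87, 0.87 without 2 libraries), AI593442 and Rasgrp1. The closest genes to the remaining 4 were Sertad1 for Nptx2 (r = 0.85), Slc9a5 for Inhba (r = 0.80), Dnajb11 for Pcsk1 (r = 0.85) and Eif4a1 for Chgb (r = 0.84). Likeness in levels also carries the difference between treatments. Deviations from group means gave other nearest genes for 6 of the 8, while Ccrn4l (r = 0.91) stayed first for Vgf and Cdh9 (r = 0.89) for Acvr1c. For Gpr3 they gave Cdk2ap1 (r = 0.86, 0.71 without 2 libraries), Traf4 (r = 0.86, 0.64 without 2 libraries) and DQ561371 (r = 0.86, 0.52 without 2 libraries).

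Other genes of the same pathways, tested by limma over all genes in the mean of days, mostly stayed below the threshold. Of the other 4 granins, 0 rose and 0 fell, with a median log2 difference of -0.003. By day, the mean was higher after amphetamine for all 4 on day 1 (median 0.13) and lower for all 4 on day 7 (median -0.05) and day 21 (median -0.09), and none passed on any day. In the mean of days Chga, the best known granin, was at -0.02 ± 0.08, Scg3 at 0.01, Scg5 at -0.03 and Pcsk1n, an inhibitor of the convertase, at 0.01. Of the 9 tested processing enzymes 0 rose and 0 fell; Pcsk2, the second neuronal convertase, was at -0.03 ± 0.04, carboxypeptidase E (Cpe) at 0.06 ± 0.04 and the amidating enzyme Pam at 0.02 ± 0.05. Of the 8 tested genes of dense-core vesicle formation and release 0 rose and 0 fell; the vesicle protein Ptprn was at 0.09 ± 0.04 and Syt4 at -0.06 ± 0.04. Granin precursors and processing enzymes as lists thus had medians of -0.003 and 0.02, beside 0.01 over all tested genes.

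Among the pentraxins and AMPA receptor subunits 0 of 6 passed; Nptx1 was at -0.14 ± 0.13, the pentraxin receptor Nptxr at -0.05 ± 0.14 and Gria4, an AMPA receptor subunit, at 0.01 ± 0.07. In the activin pathway 0 of 14 tested genes passed. There the type I receptor Acvr1b was at -0.03 ± 0.04, the type II receptors Acvr2a and Acvr2b both at 0.03, the activin-binding follistatin (Fst) at -0.06 ± 0.06 and the signal carrier Smad3 at -0.01 ± 0.06. Inhbb, the other activin subunit, averaged 0.790 FPKM and was below the expression filter. Gpr6 and Gpr12, the closest relatives of Gpr3, were both at -0.06 ± 0.07. By day, Gpr12 was at -0.36, -0.04 and 0.21 and Gpr6 at 0.06, -0.11 and -0.14, none of which passed. Gpr6 was far more abundant than Gpr3, with a mean of 68.5 FPKM against 3.54 FPKM.

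Of the 17 tested other late-response genes 1 rose and 0 fell. Rgs2, a regulator that shortens G protein signalling, had 45.6, 48.6 and 58.2 FPKM in amphetamine animals of day 1, against 51.3, 44.1 and 42.3 FPKM in saline animals. On day 7 it had 65.1, 57.3 and 60.4 FPKM in amphetamine animals, against 43.1, 46.3 and 42.8 FPKM in saline animals, and on day 21 it had 56.9, 55.5 and 57.4 FPKM in amphetamine animals, against 44.3, 35.9 and 42.2 FPKM in saline animals. The groups overlapped on day 1 and were well apart on days 7 and 21. Its mean difference was 0.36 ± 0.06 (adjusted p = 0.0227, limma). The call was lost in 11 of 29 alternatives while the difference stayed between 0.34 and 0.36 in those 11. They were both replicate blocks, the cortical marker covariate (adjusted p = 0.117, limma) and 8 single left-out libraries (saline animal 2 or 3 of day 1, amphetamine or saline animal 1 or 3 of day 7, amphetamine animal 1 or 3 of day 21). Its adjusted p by limma ran from 0.00913 to 0.367 over the 29 alternatives. Nrn1 (neuritin) was at -0.42 ± 0.29, with levels from 0.71 to 12.4 FPKM, and Bdnf averaged 0.334 FPKM, below the filter. Of the 15 immediate-early genes set beside them, 10 rose and 0 fell, with a median difference of 0.96.

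**Figure D5:**
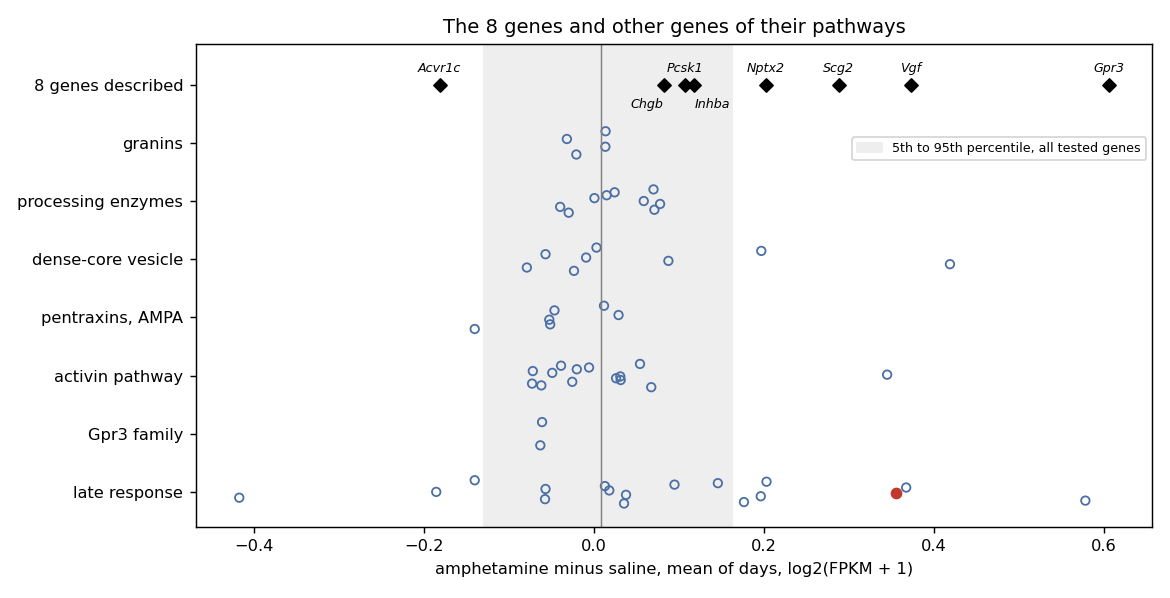
Amphetamine minus saline in the mean of days on the log2(FPKM + 1) scale for the 8 genes (black) and the other tested genes of their pathways (open circles); filled red marks a gene past an adjusted p of 0.05, and the grey band spans the 5th to 95th percentile of all tested genes. Rgs2, at 0.36, is the one filled point.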

How the data were processed

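The deposited values were FPKM per gene name and animal, as made by the authors. The submitters' processing notes name Bowtie and mm9. Versions, quantifier, annotation, strand handling and depth were not given in the sources used here. Columns were matched to the 18 animals through the labels, and 0 columns belonged to other samples. Genes with a mean of at least 1 FPKM were analysed as log2(FPKM + 1) in limma 3.58.1 (R 4.3.3) with a mean-variance trend, 1 mean per group over all 18 libraries, 12 residual degrees of freedom and 2.26 prior ones. Tests were two-sided with Benjamini-Hochberg adjustment over 13975 genes at 0.05. The p-values set differences between group means against the spread between animals, an estimate that borrows in part from other genes. The scripts were tested on simulated data. The 8 genes and all lists were chosen with earlier results of these data known, and other genes were named for their role, for passing the threshold or for a pattern most like a member. Alternatives covered pseudocount, filter, quantile normalization, replicate blocks, single days, covariates and leaving out each library; the depth and interneuron covariates were added after seeing the data. Promoters came from RefSeq, whose build differs from mm9.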

Additional observations from a re-analysis of the deposited data

How the results depend on the processing

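The count of the 8 genes past the threshold stayed at 0 under every alternative run on each day, for the interaction and for the saline day effect. In the mean of days it ran from 0 to 1 when single libraries were left out: the 1 was Gpr3, without amphetamine animal 3 of day 1. These counts rest on contrasts that served to choose some of the genes, and nothing is read from them. Over all tested genes, calls ran from 0 to 8 on day 1 (1 in the reported fit), 0 to 10 on day 7 (3), 0 to 6 on day 21 (0), 5 to 19 in the mean of days (17), 0 to 2 for the interaction (0) and 0 to 16 for the saline day effect (1). With a replicate block the mean of days had 8 calls by replicate number and 5 within day, and 0 of the 8 genes in each. Whether the replicate numbers pair the animals could not be settled with 3 animals per group. Within a day, r of deviations between same-numbered animals was -0.0853 to 0.145, over 0.1 in 3 of 9 pairs. Of the 9 amphetamine animals 4 correlated best with their own number, among them all 3 of day 21. The day 1 direction turned for Scg2 without saline animal 2 (-0.14), for Acvr1c without amphetamine animal 3 (0.01) or with a depth covariate (0.003), and for Nptx2 without amphetamine animal 3 (-0.004); on day 21 it turned for Inhba without amphetamine animal 3 (0.03) or with a depth covariate (0.03), and for Pcsk1 without amphetamine animal 2 (0.003) or saline animal 1 (0.04). The cause was not tested. The saline day effect could not be fitted with the block within day, a filter of 5 FPKM removed Gpr3 and Pcsk1, and single days gave no mean or interaction. Depth is known only relative to the deepest library, and 3 animals per group limit what can pass.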
